A study of Homo sapiens with 6 samples.

Results

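Most aldehyde dehydrogenases oxidise aldehydes to carboxylic acids with NAD or NADP as the electron acceptor. They clear reactive aldehydes from ethanol, lipid peroxidation and amino acid breakdown, and some of them make retinoic acid from retinal. Aldehyde dehydrogenase activity is also a widely used marker of stem-like cells in tumours of the stomach and other organs. The 10 members described here were taken by gene symbol from the count table, which lists 62703 genes: ALDH1A1, ALDH1A2, ALDH1A3, ALDH1B1, ALDH2, ALDH3A1, ALDH3A2, ALDH3B1, ALDH7A1 and ALDH18A1. Each was found once, and 9 of the 10 passed the filter on low counts; ALDH1A2 did not.

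All 6 libraries were made from the gastric cancer line HGC-27, an established line that was kept in 10% fetal bovine serum in both groups. In the shControl group, with the genotype given as WT, cells had a control shRNA. In the shGXYLT2 group, with the genotype GXYLT2 knockdown, stably transfected cells had an shRNA against GXYLT2. Each group had 3 libraries. GXYLT2 encodes a xylosyltransferase of EGF repeats, and the study asked how its loss bears on proliferation, invasion and stemness. Whether either group is 1 clone or a pool is not given, and only 1 shRNA is named, so an effect of the line and an effect of the knockdown cannot be told apart. The labels also do not say whether the replicates are separate cultures, and p-values therefore reflect the spread of these libraries alone, which could be technical. A lower level of a transcript in bulk RNA can come from fewer cells that express it or from less RNA per cell, and these cannot be told apart.

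Library totals ran from 17291138 to 24898425 estimated counts, and a count of 3 was worth 0.120 to 0.176 CPM (counts scaled to library size with TMM factors). Values after ± are SDs over the 3 libraries of a group. GXYLT2 stood at 20.7, 22.8 and 20.2 CPM in the control libraries and at 5.27, 6.27 and 5.34 CPM in the knockdown libraries (log2 fold change -1.91; adjusted p = 6.3e-10 by the edgeR quasi-likelihood test with Benjamini-Hochberg adjustment). The xylosyltransferase paralog GXYLT1 also fell, by 1.05 on the log2 scale (edgeR adjusted p = 3.7e-08). Epithelial markers were low in a line labelled as gastric cancer: EPCAM averaged 0.151 and 0.109 CPM, KRT18 0.068 and 0.0266 CPM, and 5 of 7 gastric lineage markers were at 0 in all 6 libraries. Of that list MUC6, a gland mucin, rose from 2.05 to 4.22 CPM (edgeR adjusted p = 0.0029), and the list summed to 1.93 to 2.33 CPM in shControl and 3.23 to 5.29 CPM in shGXYLT2. Summed levels of 7 epithelial markers were 6.03 to 8.44 CPM in shControl and 6.42 to 7.21 CPM in shGXYLT2, and the 4 tested ones had edgeR adjusted p of 0.19 to 0.69. Of the fibroblast markers, COL1A1 fell while COL1A2, DCN and LUM rose, and the summed level of 7 markers was 2777 to 2907 and 2684 to 2875 CPM. Leukocyte markers summed to at most 2.23 CPM, endothelial markers to at most 0.240 CPM, and 4 markers of adipocytes and hepatocytes, which are rich in aldehyde dehydrogenases, to at most 0.404 CPM in any library. The part of the MUC6 and collagen changes in the aldehyde dehydrogenase results was not tested.

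Across all genes, 1907 of 15693 tested genes (12.2%) were called at an adjusted p below 0.05, 5.31% as higher and 6.84% as lower in shGXYLT2. Among the 9 tested aldehyde dehydrogenases 3 were called: ALDH3A1 and ALDH7A1 rose and ALDH3B1 fell. The groups did not overlap in 5 of the 9, against 30.4% of all tested genes. The median log2 fold change of the 9 was -0.016, and that of all tested genes was -0.006. The members' median ran from -0.017 to 0.025 over the alternative settings that tested the same 9 genes. It was 0.072 with no filter and 0.053 with DESeq2 (10 members tested in each). With a filter at 1 CPM, where 8 were tested, it was 0.057.

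**Figure D1:**
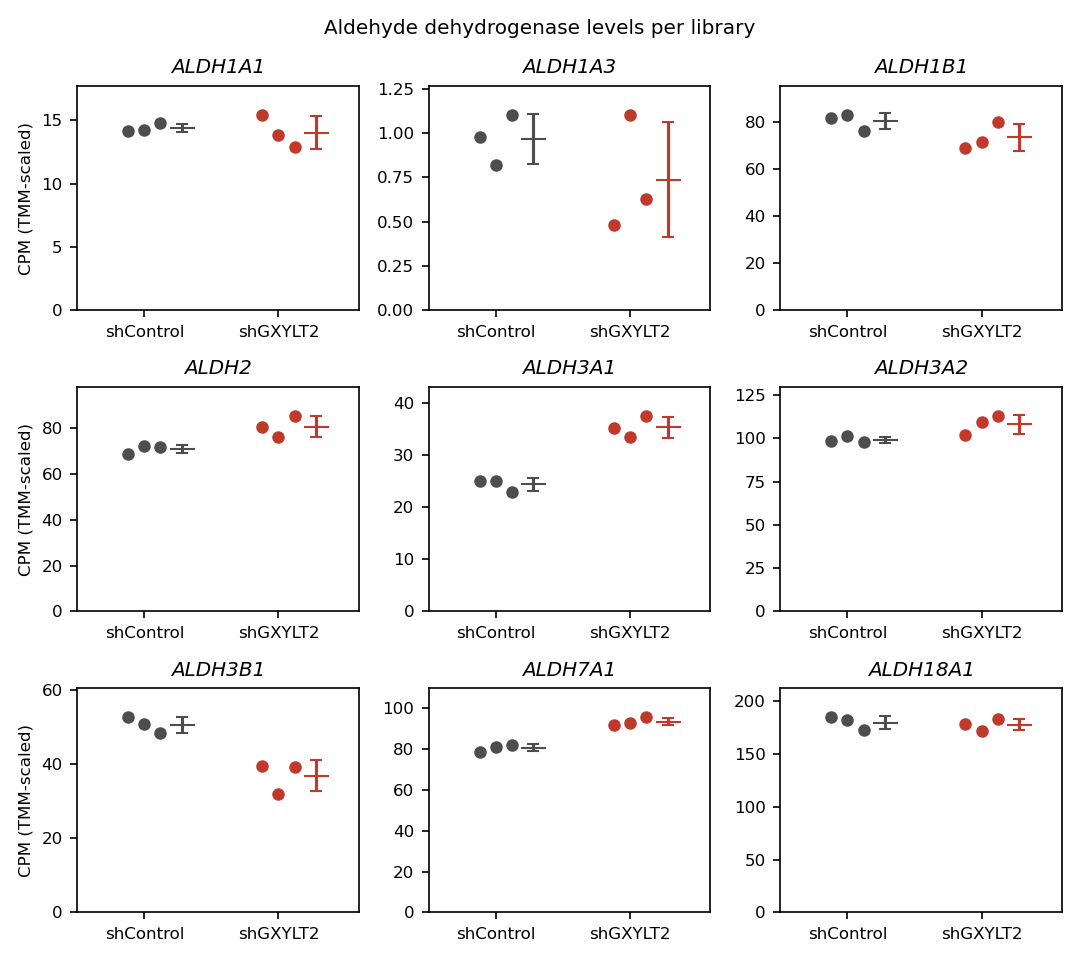
Levels of the 9 tested aldehyde dehydrogenases in each library (vertical axis, TMM-scaled CPM from 0; points are libraries in replicate order, the cross line and bars beside them are the mean and SD of 3). The groups lie apart in ALDH3A1, ALDH3B1, ALDH7A1, ALDH2 and ALDH3A2 and overlap in the other 4.

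Of the class 3 enzymes, which prefer medium and long chain fatty or aromatic aldehydes, ALDH3A1 rose and ALDH3B1 fell, while ALDH3A2 was not called. ALDH3A1, a cytosolic enzyme that is abundant in the cornea and in the stomach mucosa and is induced through the aryl hydrocarbon receptor, lies on the minus strand of chromosome 17 (GRCh38, ENSG00000108602, chr17:19737984-19748943). Its level was 25.1, 25.1 and 23.0 CPM in shControl replicates 1 to 3 and 35.2, 33.4 and 37.5 CPM in shGXYLT2 replicates 1 to 3. Every shGXYLT2 library was above every shControl library. The mean rose 1.45-fold, from 24.4 ± 1.22 to 35.4 ± 2.03 CPM (log2 fold change 0.54, SE 0.0796, edgeR adjusted p = 1.4e-04). This rise passed in all 15 alternative fits, with log2 fold changes of 0.50 to 0.58.

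ALDH3B1, a membrane-associated enzyme that acts on lipid-derived aldehydes, lies on the plus strand of chromosome 11 (ENSG00000006534, chr11:68008578-68029282). Its level was 52.7, 50.8 and 48.3 CPM in shControl and 39.4, 32.0 and 39.2 CPM in shGXYLT2. All 3 shGXYLT2 libraries were below the lowest shControl library, and shGXYLT2 replicate 2 was the lowest of the 6. The mean fell from 50.6 ± 2.16 to 36.9 ± 4.19 CPM (1.37-fold lower, log2 fold change -0.46, SE 0.0815, edgeR adjusted p = 9.4e-04). The call held in all 15 alternative fits, with log2 fold changes of -0.50 to -0.37. Levels per kilobase of the deposited gene length put ALDH3B1 above ALDH3A1 in the control cells (22.2 against 12.7 CPM per kilobase) and below it after the knockdown (16.2 against 18.4). The ratio of ALDH3A1 to ALDH3B1 was 0.564, 0.585 and 0.563 in control replicates 1 to 3, against 1.06, 1.23 and 1.13 in knockdown replicates 1 to 3. It was below 1 in every control library and above 1 in every knockdown library. The ratio sets a called riser against a called faller, so it is no evidence beyond those calls. The crossing of 1 depends on scaling by length. In CPM the shGXYLT2 mean of ALDH3B1 was still above that of ALDH3A1 (36.9 against 35.4 CPM).

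ALDH3B1 has a pair of annotated start sites in the RefSeq promoter table (GRCh38.p14), and gene-level counts cannot say which of them the fall belongs to. Both upstream windows are shown for that reason, from 250 to 11 bases before the start, on the plus strand, at chr11:68008297-68008536 and chr11:68010077-68010316. Capitals mark matches to the GC box, GGGCGG on either strand, where factors of the SP family can bind.
ALDH3B1 start 1: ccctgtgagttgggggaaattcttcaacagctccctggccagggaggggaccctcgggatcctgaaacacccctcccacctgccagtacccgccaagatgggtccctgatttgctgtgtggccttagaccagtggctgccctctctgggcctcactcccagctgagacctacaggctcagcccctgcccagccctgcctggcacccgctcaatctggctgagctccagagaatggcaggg
ALDH3B1 start 2: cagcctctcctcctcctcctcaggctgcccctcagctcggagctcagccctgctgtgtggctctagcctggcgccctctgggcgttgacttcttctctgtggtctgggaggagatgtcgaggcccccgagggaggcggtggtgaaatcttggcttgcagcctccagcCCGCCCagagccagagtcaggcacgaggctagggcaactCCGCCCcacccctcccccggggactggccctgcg
The window of start 1 has 0 GC boxes and that of start 2, which lies inside the gene as GENCODE has it, has 2, beginning 83 and 44 bases before the start, with a GC content of 63.3% and 68.3%. Among 35116 promoter windows of the same length in the table, 41.4% hold a GC box. Neither window holds the core of the xenobiotic response element, GCGTG on either strand, which is the site of the aryl hydrocarbon receptor and is present in 31.2% of all windows. The promoter table gave 11 windows for 8 of the 10 members, without ALDH2 and ALDH3A1. Of these 11 windows 6 held a GC box, each from another member. The xenobiotic core was in 3 of the 11 (ALDH1A2, ALDH1A3 and ALDH3A2).

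ALDH3A2, the fatty aldehyde dehydrogenase of the endoplasmic reticulum whose loss causes Sjögren-Larsson syndrome, lies next but one to ALDH3A1 (ENSG00000072210, chr17:19648136-19677598, plus strand), with SLC47A2 between them. It was the most abundant class 3 gene per length in both groups. Its level was 98.3, 101.2 and 97.8 CPM in shControl and 101.9, 109.7 and 112.8 CPM in shGXYLT2. The groups lay apart by less than 1 CPM at their nearest libraries, and the difference did not pass (99.1 ± 1.83 against 108.1 ± 5.62 CPM; log2 fold change 0.13, 95% interval -0.003 to 0.25, edgeR adjusted p = 0.21). It was called in 0 of the 15 alternative fits. The ratio of ALDH3A1 to ALDH3A2 per kilobase was 0.251 to 0.273 in shControl and 0.326 to 0.370 in shGXYLT2, with no overlap. The gene between them, SLC47A2, averaged 0.267 and 0.205 CPM and was not tested, and ULK2 on the other side of ALDH3A1 averaged 7.50 and 9.04 CPM (edgeR adjusted p = 0.21).

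ALDH7A1, also called antiquitin, oxidises the semialdehyde of lysine breakdown and betaine aldehyde, and its loss causes pyridoxine-dependent epilepsy. It lies on the minus strand of chromosome 5 (ENSG00000164904, chr5:126531200-126595418). Its level was 78.8, 81.2 and 81.9 CPM in shControl and 91.9, 93.0 and 95.6 CPM in shGXYLT2. The libraries of each group lay close together and the groups did not overlap. The mean rose 1.16-fold, from 80.7 ± 1.64 to 93.5 ± 1.89 CPM (log2 fold change 0.21, SE 0.060, edgeR adjusted p = 0.025). This call was lost without shControl replicate 1, 2 or 3 or shGXYLT2 replicate 1 (edgeR adjusted p = 0.154, 0.0895, 0.0804 and 0.0571). It was also lost with a replicate term in the fit, and it held in 10 of the 15 alternative fits. The log2 fold change stayed between 0.20 and 0.24 over all alternatives. Its neighbour PHAX, 4849 bases away, averaged 47.7 and 46.3 CPM (adjusted p = 0.80).

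Of the upstream window of ALDH7A1 (GRCh38.p14, minus strand), the 30 bases with its adjacent GC boxes are shown, at chr5:126595243-126595272, from 53 to 24 bases before the RefSeq start and inside the 5′ end of the gene in GENCODE, with the GC boxes in capitals.
ALDH7A1: ctcccGGGCGGgGGGCGGggctctatttca
The whole window, from 250 to 11 bases before the start, holds 3 GC boxes, at 106, 48 and 41 bases, and a CCAAT box at 63 bases, which 31.4% of all windows hold (CCAAT on either strand). It has 0 matches to the xenobiotic core.

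**Figure D2:**
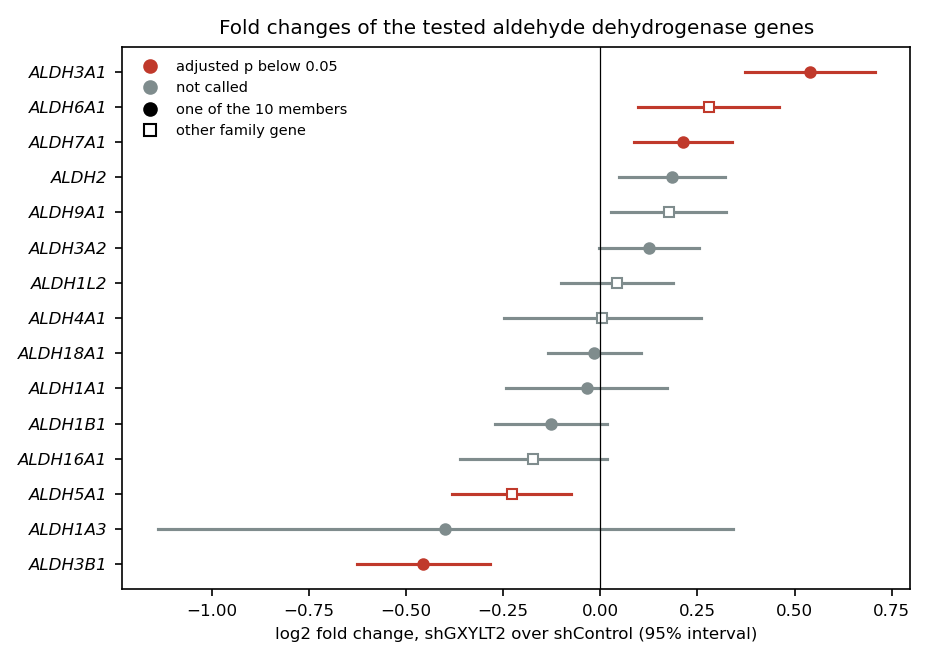
Log2 fold change of shGXYLT2 over shControl (horizontal axis) with its 95% interval for the 15 tested aldehyde dehydrogenase genes, sorted; filled circles are the 9 tested members, open squares 6 other family genes, and red marks those called by edgeR. ALDH3A1 is highest at 0.54 and ALDH3B1 lowest at -0.46. Red marks 5 of the 15 genes, against 12.2% of all tested genes called.

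Of the retinal dehydrogenases, which make retinoic acid, ALDH1A3 and ALDH1A2 were low or near 0 in this line, while ALDH1A1 was higher. ALDH1A1, the isoform most often measured as a stem cell marker, lies on chromosome 9 (ENSG00000165092, chr9:72900662-73080442, minus strand). Its level was 14.1, 14.2 and 14.7 CPM in shControl and 15.4, 13.8 and 12.8 CPM in shGXYLT2. The shGXYLT2 libraries spread on both sides of the controls. The means were 14.4 ± 0.320 and 14.0 ± 1.28 CPM (log2 fold change -0.03, 95% interval -0.24 to 0.17, edgeR adjusted p = 0.87), and the sign turned to 0.03 without shGXYLT2 replicate 3.

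ALDH1A3 (ENSG00000184254, chr15:100877714-100916626, plus strand), the isoform linked to ALDEFLUOR activity in several carcinomas, rested on 14 to 25 counts per shControl library and 12 to 27 per shGXYLT2 library. Its level was 0.977, 0.820 and 1.10 CPM in shControl and 0.479, 1.10 and 0.629 CPM in shGXYLT2. Those ranges overlapped, and the 95% interval of the log2 fold change ran from -1.14 to 0.34 (edgeR adjusted p = 0.53). At this depth any change within that interval is compatible with the counts. The antisense gene ALDH1A3-AS1 shares 1585 exonic bases with it and had 38 to 78 counts per library. All 6 ALDH1A3 values were fractional, and the sources used here do not say whether strand entered the counting, so reads of the pair cannot be told apart.

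ALDH1A2 (ENSG00000128918, chr15:57953424-58497866, minus strand), the main retinal dehydrogenase of the embryo, had 1 count in shGXYLT2 replicate 3 and 0 in the other 5 libraries. A count of 0 allows up to 3 counts, or 0.120 to 0.176 CPM in these libraries, counting error alone. No fold is given for it. ALDH1A2-AS1 had 0 counts throughout.

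Neither of the mitochondrial acetaldehyde-oxidising enzymes was called. Per kilobase of the deposited length, ALDH2 was close to ALDH1A1 in shControl (7.42 against 6.86 CPM per kilobase). ALDH2, the main enzyme of acetaldehyde clearance, lies on chromosome 12 (ENSG00000111275, chr12:111766887-111817529, plus strand). Its level was 68.9, 72.1 and 71.8 CPM in shControl and 80.6, 76.1 and 85.3 CPM in shGXYLT2. The groups did not overlap, and the means were 70.9 ± 1.80 and 80.7 ± 4.61 CPM (log2 fold change 0.18, 95% interval 0.05 to 0.32, edgeR adjusted p = 0.070). ALDH2 passed in 3 of 15 alternative fits, with upper-quartile factors (adjusted p = 0.044), without shGXYLT2 replicate 2 (0.035) and with GC content and length offsets (0.0027). All 6 of its values were fractional. An unnamed same-strand gene, ENSG00000257767, shares 680 exonic bases with it and had 0, 17 and 0 counts in shControl and 0, 51 and 64 in shGXYLT2, beside 1198 to 2018 counts for ALDH2.

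ALDH1B1, a mitochondrial relative of ALDH2 whose coding sequence lies in 1 exon, is on chromosome 9 (ENSG00000137124, chr9:38392664-38398661, plus strand). Its level was 81.6, 82.9 and 76.4 CPM in shControl and 69.2, 71.4 and 79.9 CPM in shGXYLT2. Replicate 3 of shGXYLT2 lay within the range of the controls, and the other 2 lay below it. The log2 fold change was -0.13 (95% interval -0.27 to 0.02, edgeR adjusted p = 0.26), and without shGXYLT2 replicate 3 it was -0.19 with an adjusted p of 0.028.

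ALDH18A1 encodes the bifunctional synthase that turns glutamate into pyrroline-5-carboxylate, the precursor of proline, and lies on chromosome 10 (ENSG00000059573, chr10:95605929-95656706, minus strand). Its level was 184.5, 181.7 and 172.5 CPM in shControl and 178.2, 171.8 and 182.6 CPM in shGXYLT2. The ranges nearly coincided, and the log2 fold change was -0.02 with a 95% interval of -0.14 to 0.10 (edgeR adjusted p = 0.90). With 3101 to 4460 counts per library this was the most deeply counted member and had the narrowest interval of the 9.

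Levels of different genes were compared per kilobase of the gene length that the authors deposited. ALDH18A1 took 25.5% ± 0.459 of the summed level of the 10 members in shControl and 24.4% ± 0.403 in shGXYLT2, followed by ALDH3A2 with 22.9% and 24.2%, ALDH7A1 with 15.4% and 17.2%, and ALDH1B1 with 12.6% and 11.2%. ALDH3A1 held 6.03% ± 0.182 in shControl and 8.46% ± 0.228 in shGXYLT2, and ALDH3B1 10.6% ± 0.301 and 7.45% ± 0.735. ALDH1A1 accounted for 3.27% and 3.09%, and ALDH1A3 for 0.133% and 0.0982%. The sum over the 10 members was 209.9 ± 4.33 and 217.1 ± 7.65 CPM per kilobase, and the ranges of the groups overlapped. In shControl every pair of neighbours in the order lay further apart than the sum of their SDs, the closest being ALDH2 and ALDH1A1 (7.42 ± 0.189 and 6.86 ± 0.153 CPM per kilobase). In shGXYLT2 this did not hold for ALDH18A1 and ALDH3A2 (53.0 ± 1.61 and 52.5 ± 2.73) or for ALDH3A1 and ALDH3B1 (18.4 ± 1.06 and 16.2 ± 1.84).

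The order depended on which length was used. With the merged exon length of GENCODE, which counts rare and retained-intron transcripts, ALDH7A1 dropped from 32.2 to 4.49 CPM per kilobase in shControl and ALDH3A2 from 48.1 to 15.3, while ALDH18A1 remained first at 47.7 and ALDH1B1 became the second at 25.5. ALDH3B1 was above ALDH3A1 in shControl and below it in shGXYLT2 on that length too (7.64 against 6.22 and 5.57 against 9.03).

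**Figure D3:**
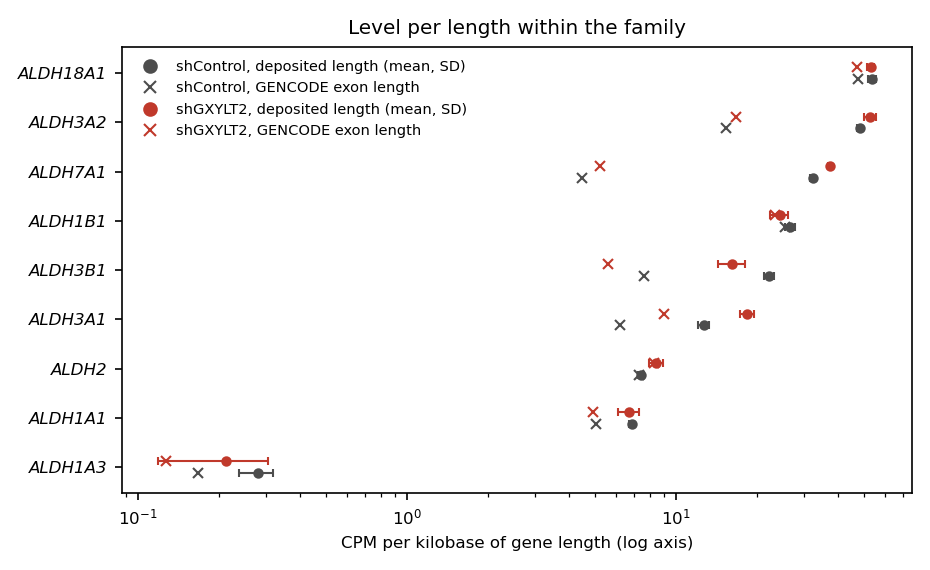
Level per kilobase (horizontal log axis) of the 9 tested members in both groups, with the deposited length (circles, mean and SD of 3 libraries) and the GENCODE merged exon length (crosses, means). ALDH18A1 is first on both lengths and ALDH1A3 last, while ALDH7A1 and ALDH3A2 shift most between them.

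The 9 remaining human aldehyde dehydrogenase genes were listed as a comparison, and 6 of them passed the filter. Among these ALDH6A1, the mitochondrial methylmalonate semialdehyde dehydrogenase of valine breakdown, rose from 20.9 ± 1.39 to 25.4 ± 1.67 CPM (0.28 on the log2 scale, with an edgeR adjusted p of 0.041). ALDH5A1, which oxidises succinate semialdehyde from GABA, fell from 37.8 ± 1.33 to 32.2 ± 1.17 CPM (-0.23 on the log2 scale, with an edgeR adjusted p of 0.047). BBOF1, on the other strand, shares 670 exonic bases with ALDH6A1 and had 24, 34 and 28 counts in shControl and 66, 55 and 34 in shGXYLT2. Both calls lay close to the threshold: 7 of 15 alternative fits lost that of ALDH6A1 and 10 of 15 that of ALDH5A1, among them the fits that left out shControl replicate 1, 2 or 3, or shGXYLT2 replicate 1 (adjusted p = 0.0653, 0.130, 0.203 and 0.0986 for ALDH6A1, 0.154, 0.180, 0.103 and 0.182 for ALDH5A1) and, for ALDH6A1, without shGXYLT2 replicate 3 (0.0722). ALDH9A1, which acts in carnitine synthesis, averaged 64.0 and 72.2 CPM (adjusted p = 0.12), and ALDH1L2, the mitochondrial formyltetrahydrofolate dehydrogenase, averaged 76.3 and 78.7 CPM (0.76). ALDH16A1 averaged 22.7 and 20.1 CPM (0.25), and ALDH4A1, which returns proline carbon to glutamate, 9.16 and 9.18 CPM (0.99). ALDH8A1 had 0, 0 and 2 counts in shControl and 10, 7 and 3 in shGXYLT2, ALDH1L1 had 3 counts in all, and ALDH3B2 had 0 counts in every library. Over the whole family 5 of 15 tested genes were called, 3 upward and 2 downward, against 12.2% of all tested genes (5.31% higher and 6.84% lower). Of these 5 only ALDH3A1 and ALDH3B1 kept their call in all 15 alternative fits. The pseudogene ALDH7A1P1 had 1 count in all, and ALDH7A1P2, ALDH7A1P3 and ALDH7A1P4 had 0.

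A 7-base word, GACTCAT, is more frequent in the 3' UTRs of genes that fell in this comparison than in those of other genes, a pattern found in the same fold changes and so no independent support for any of them. In the longest 3' UTR of at least 100 bases in GENCODE release 29, 0 of the 10 members held it, ALDH3B1 included, against 1144 of 12558 tested genes (9.11%) and 250 of 975 that fell (25.6%). Of the other family genes ALDH1L1 and ALDH5A1 held it. The site of ALDH5A1, the family gene that fell and holds the word, begins at base 2285 of its 3' UTR and is shown with the word in capitals.
ALDH5A1: ttgaggccagaGACTCATtgtatatcctt

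Genes that supply or use the same substrates were described from lists. Among 27 retinoid genes 17 were tested, of which 1 rose and 0 fell by edgeR at the adjusted threshold. An unadjusted edgeR p below 0.05 was found for 5 of them, and DESeq2 called 0 in either direction. Of all 15693 tested genes 12.2% were called at the adjusted threshold (5.31% higher and 6.84% lower), and 4005 had an unadjusted edgeR p below 0.05. These are the background for the counts here and in the lists that follow. The riser was CYP26B1, which degrades retinoic acid, with 0, 3 and 6 counts in shControl and 23, 12 and 17 in shGXYLT2 (0.147 ± 0.134 and 0.724 ± 0.218 CPM; edgeR adjusted p = 0.016). DESeq2 gave it no adjusted p. Its edgeR call was lost without shControl replicate 1 or 2 or shGXYLT2 replicate 1 (adjusted p by edgeR 0.0769, 0.0599 and 0.0692). The median log2 fold change of the tested retinoid genes was 0.016.

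On the side of proline and glutamate, 0 of 13 tested genes rose and 1 fell by edgeR, against 12.2% of all tested genes called. An unadjusted p below 0.05 was found for 3, and the median log2 fold change was -0.029. GLUD1, the mitochondrial glutamate dehydrogenase, fell from 196.4 ± 11.7 to 152.7 ± 3.28 CPM (-0.36 on the log2 scale, with an edgeR adjusted p of 4.3e-04), and this passed in all 15 alternative fits. Of 11 tested genes for the breakdown of lysine, choline and branched amino acids 0 were called, with 3 at an unadjusted p below 0.05 and a median of 0.14; DESeq2 called 0 and edgeR called 1 riser with upper-quartile factors. DHTKD1, which acts after ALDH7A1 in lysine breakdown, averaged 83.8 and 91.0 CPM (adjusted p = 0.26), and HIBADH of the valine pathway 55.1 and 55.7 CPM (0.91).

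Of 14 tested carbonyl and alcohol oxidoreductases 1 rose and 2 fell (21.4% called, against 12.2% of all tested genes), with a median of 0.023. The same counts of rises and falls came out of every alternative fit. Aldo-keto reductases were the fallen members: AKR1C3, which reduces prostaglandins and steroids, went from 23, 21 and 31 counts in shControl to 9, 5 and 7 in shGXYLT2 (1.31 ± 0.0682 and 0.293 ± 0.0803 CPM; log2 fold change -2.14, edgeR adjusted p = 5.4e-04). AKR1C3 reads can be split with near-identical AKR1C genes, so its value is uncertain. AKR1B1, the aldose reductase, fell from 16.1 ± 0.812 to 11.4 ± 1.51 CPM (edgeR adjusted p = 0.0046). Catalase (CAT), which removes hydrogen peroxide, rose from 38.2 ± 1.74 to 49.1 ± 1.61 CPM (edgeR adjusted p = 0.0018).

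Among 9 tested genes of the aryl hydrocarbon receptor pathway 1 rose and 1 fell, against 12.2% of all tested genes called. Their median was 0.088. This pathway controls ALDH3A1 in other cells. CYP1A1, its best known target, rose from 2.05 ± 0.68 to 3.51 ± 0.471 CPM (0.76 on the log2 scale, with an edgeR adjusted p of 0.031), and NQO1, a quinone reductase, fell from 278.0 ± 7.70 to 246.4 ± 8.46 CPM (-0.17 on the log2 scale, with an edgeR adjusted p of 0.046). DESeq2 did not call CYP1A1 (adjusted p = 0.092), and edgeR did not when shControl replicate 2, shControl replicate 3, shGXYLT2 replicate 1 or shGXYLT2 replicate 3 was left out (0.146, 0.0698, 0.0957 and 0.0626). NQO1 lost its call when any 1 shControl library (replicates 1, 2 and 3) was left out, and likewise for shGXYLT2 replicate 1 and replicate 2 (edgeR adjusted p = 0.143, 0.190, 0.125, 0.153 and 0.0931). AHR itself, named after its value was seen, had a log2 fold change of 0.02 (edgeR adjusted p = 0.91).

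All 20 genes of fatty aldehyde and sphingolipid metabolism were tested, with a median of -0.042. Of these 1 rose and 2 fell, against 12.2% of all tested genes called. PHYH, which starts the alpha-oxidation of phytanic acid, rose from 23.6 ± 2.83 to 28.9 ± 1.32 CPM (edgeR adjusted p = 0.038). SPHK1, a sphingosine kinase, fell from 17.1 ± 2.12 to 12.2 ± 1.94 CPM and the ceramide synthase CERS6 from 85.4 ± 1.6 to 72.9 ± 5.87 CPM (edgeR adjusted p = 0.013 and 0.033). Leaving out 1 library ended each of these calls at least once. PHYH lost its call in all 6 such fits except that without shControl replicate 2 (edgeR adjusted p = 0.204 without shControl replicate 1, 0.192 without shControl replicate 3, and 0.0531, 0.0806 and 0.0503 without shGXYLT2 replicates 1, 2 and 3). SPHK1 lost it without shControl replicate 1 or 2 or shGXYLT2 replicate 2 (0.0578, 0.0934 and 0.0618), and CERS6 without shControl replicate 1, 2 or 3 or shGXYLT2 replicate 1 (0.116, 0.0964, 0.147 and 0.0596).

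Genes whose log2 CPM followed ALDH3A1 and ALDH3B1 most closely over the 6 libraries were sought among the 10020 tested genes that reached a mean of 3 on the log2 CPM scale. For ALDH3A1 these were PPP2R2D, ATRAID and ZNF385A (Pearson r of 0.998, 0.998 and 0.997). ALDH3B1 was followed by CAVIN1, DOLK and COL16A1 (0.999, 0.998 and 0.998). The 6 libraries fall into the 2 groups, so any gene that differs between groups gives a high r, and the values are a description of these libraries. Next to ALDH3B1, the genes UNC93B1 and NDUFS8 lie 3595 and 1334 bases away and had edgeR adjusted p of 0.69 and 0.99. GRAMD2B, the neighbour of ALDH7A1 on the other side, averaged 0.0195 CPM in shControl and 0 in shGXYLT2 and was not tested.

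**Figure D4:**
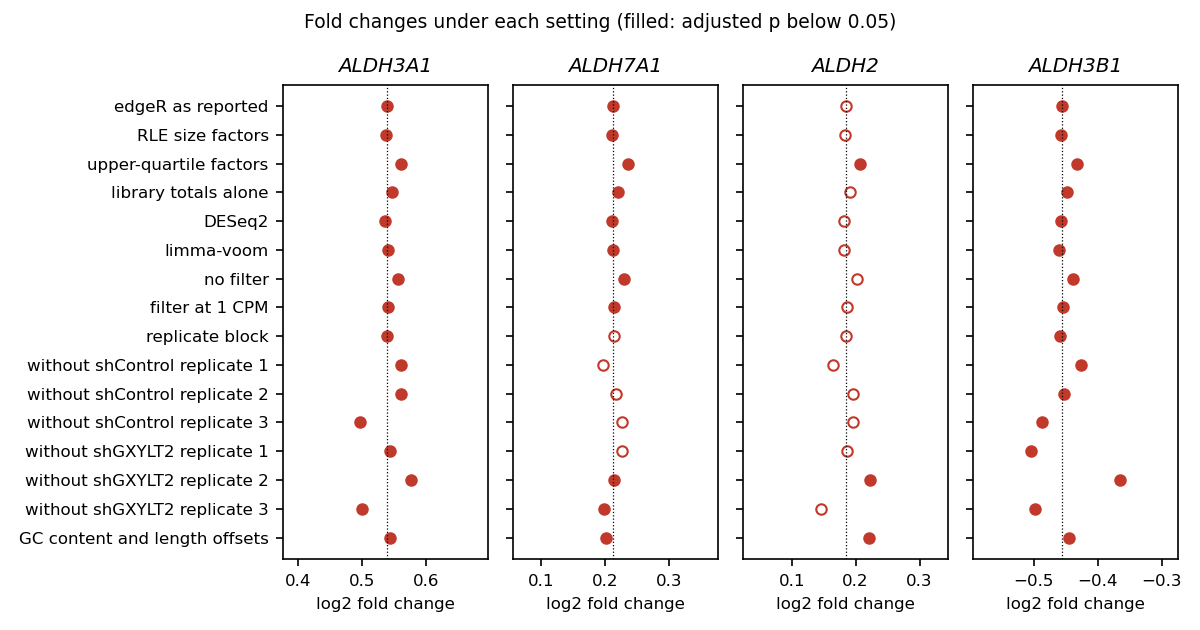
Log2 fold change (horizontal axis, the same width in each panel) of ALDH3A1, ALDH7A1, ALDH2 and ALDH3B1 under the reported fit and 15 alternatives (rows); filled points have an adjusted p below 0.05 and the dotted line is the reported value. ALDH3A1 and ALDH3B1 are filled throughout, ALDH7A1 in 10 and ALDH2 in 3 of the 15 alternatives.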

How the data were processed

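RNA was extracted with TRIzol and made into libraries with a stranded mRNA ligation kit, per the labels' protocols. The authors deposited unnormalized estimated counts for each gene (12.3% of them fractional) and a gene length whose definition is not given in the sources used here. HISAT2, StringTie and fastp are named with GRCh38.p13, per the submitters' processing notes; versions, annotation release and the use of strand are not given. Each column was matched to its sample by the description label, and replicates are numbered as in the sample titles.

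Counts were rounded, filtered with filterByExpr, scaled by TMM and fitted with edgeR 4.0.16 (robust quasi-likelihood, group as the only term, all 6 libraries) in R 4.3.3. P-values are two-sided and Benjamini-Hochberg adjusted over 15693 genes. Intervals are 95% and come from the fit. Alternatives used DESeq2 1.42.0, limma 3.58.1, other scalings and filters, a replicate term, and each library left out. The GC content and length offsets were added after seeing the data. The code was tested on a single simulated data set, in which a smaller share of genes changed than was called here. It found most large changes and missed most changes about as small as that of ALDH7A1. Its share of false calls was larger than the threshold allows for, which bears on calls near the threshold. The share of false calls in the data themselves was not tested. Gene positions, exon lengths and 3' UTRs came from GENCODE release 29 (GRCh38) and promoters from RefSeq (GRCh38.p14), in windows from 250 to 11 bases before the start. The list gene TMEM189 is named PEDS1 in the table.

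The members and lists were chosen with earlier results of these data known. Named genes are all 19 aldehyde dehydrogenases, up to 3 called genes in each direction per list or the 2 most abundant, the neighbours of called members and the 3 genes most like each; those for ALDH7A1 are not reported here. Markers, GXYLT1, BBOF1, AHR and ENSG00000257767 stand outside that rule and were named after their values were seen.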

Additional observations from a re-analysis of the deposited data

How the results depend on the processing

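Of the called members, ALDH3A1 and ALDH3B1 kept their call in all 15 alternative fits and ALDH7A1 in 10. Risen members numbered 2, against 1 with the replicate block, 3 with upper-quartile factors and 3 with GC content and length offsets. With 1 library left out they numbered 1 to 3. Fallen members numbered 1, against 1 to 2 with 1 library left out. Replicate numbers are those of the sample titles; the description labels number alike the pairs called 1 and 3 but not the pair called 2. Libraries with the same title number deviated together no more than others (correlations of 0.005, -0.043 and -0.023, against -0.023 to 0.047 for other pairs). With 3 libraries per group these values cannot show whether same-numbered libraries belong together. Under the block ALDH7A1 had an edgeR adjusted p of 0.072, and 606 risen and 865 fallen genes were called among all tested genes. Over all genes the rises numbered 833 and 397 to 1038 with 1 library left out (falls 1074, 563 to 1309), both lowest without shControl replicate 3 and highest without shGXYLT2 replicate 3, and 1581 with GC content and length offsets (falls 1555). With the same offsets the rises were 2 among the other aldehyde dehydrogenases, 3 among retinoid genes, 2 for lysine and choline and 2 for the aryl hydrocarbon receptor, and 3 proline genes fell. The other aldehyde dehydrogenases had 0 rises with DESeq2 or the replicate block, and 0 falls with upper-quartile factors, library totals alone, DESeq2, limma-voom, no filter or the replicate block. Retinoid rises were 0 with DESeq2 and with a filter at 1 CPM, where CYP26B1 was not tested. The lysine and choline list had 1 rise with upper-quartile factors, no filter or the filter at 1 CPM. Rises of the aryl hydrocarbon receptor list were 0 with DESeq2, and its falls 0 with upper-quartile factors, no filter or the replicate block; the fatty aldehyde list had 0 rises with DESeq2 and 1 fall with the replicate block. With 1 library left out, rises and falls ranged from 0 to 1 for the other aldehyde dehydrogenases and the aryl hydrocarbon receptor list, rises from 0 to 1 for retinoid and fatty aldehyde genes and from 0 to 2 for lysine and choline, and falls from 0 to 2 for fatty aldehyde genes. The causes were not tested.

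Signs turned only for genes that were called in neither fit. On the log2 scale ALDH18A1 was 0.0065 with upper-quartile factors, 0.0013 with no filter and -0.04 to 0.0048 with 1 library left out. NDUFS8 was 0.019 with upper-quartile factors, 0.0039 with library totals alone, 0.014 with no filter and -0.052 to 0.080 with 1 library left out. HIBADH was -0.0063 with GC content and length offsets and -0.032 to 0.080 with 1 library left out. Without 1 library ALDH1A1 ranged from -0.11 to 0.025, ALDH1L2 from -0.015 to 0.083, ALDH4A1 from -0.067 to 0.11 and PHAX from -0.12 to 0.050. Depth limits ALDH1A3, ALDH1A2 and CYP26B1, which rested on at most 27 counts per library.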
